A study of Rattus norvegicus with 21 samples.

Results

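The livers described here came from rats that had received diethylnitrosamine (DEN) and, in the last weeks, the lower of 2 doses of erlotinib, and they were set against livers of rats that had received phosphate-buffered saline (PBS). The comparison took the 3 arrays titled DEN 50 with erlotinib 0.5 at week 18 and the 3 arrays titled PBS at week 18, 6 of 21 arrays in all, and covered every gene measured. All rats were male Wistar rats, and the labels used here give no age. DEN was injected into the abdomen at 50 mg/kg every week for 18 weeks, and erlotinib at 0.5 mg/kg 5 times a week in weeks 13 to 18 (erlotinib 0.5). The PBS rats had weekly PBS, and their labels name no drug or vehicle treatment. Tissue was non-tumour liver taken after a washout of 1 week, and the labels call the DEN livers cirrhotic. DEN rats that received vehicle in weeks 13 to 18 (vehicle, 3 arrays) and the arrays of DEN 50 and PBS at week 12 (3 and 3), before any drug, served for reference.

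DEN is a liver carcinogen that cytochrome P450 enzymes of hepatocytes convert to a DNA-damaging agent. Repeated dosing in rats gives scarring of the liver and foci of altered hepatocytes, which are known for their placental glutathione S-transferase. Erlotinib inhibits the epidermal growth factor receptor (EGFR), a kinase that carries growth signals from ligands such as EGF to the ERK pathway, and acts on the protein rather than on its transcript.

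DEN and erlotinib both set the treated group apart from PBS, so this comparison cannot tell the part of either agent. The lower dose came from a separate study, and the vehicle group mixes rats of both studies with no label for each rat, so dose and study cannot be told apart in the comparison with vehicle. The titles of the PBS arrays name no study either, so study may also differ between the erlotinib 0.5 and PBS groups. Each array was read as a separate rat from the number in its title, and the p-values reflect only how much these samples vary. In bulk tissue, fewer cells of a type and less RNA per cell cannot be told apart. Raw array medians ranged from 105 to 186.9 intensity units over the 21 arrays. After normalization the erlotinib 0.5 arrays correlated with each other at 0.9854 to 0.9906, with the PBS arrays at 0.9510 to 0.9561 and with the vehicle arrays at 0.9705 to 0.9863. On the first principal component (50.7% of the variance) they lay at 12.16 to 14.98, against -46.61 to -44.18 for PBS and 17.10 to 34.47 for vehicle, and vehicle rat 24 stood apart from the other vehicle arrays on the third.

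A large share of the liver transcriptome differed from PBS. Of 19339 features (12112 named genes and 7227 probes without a name), 2994 passed a Benjamini-Hochberg adjusted p of 0.05 in limma, which is 15.5% of those tested. Of these, 1550 were higher (8.01% of features) and 1444 lower (7.47%), and 875 changed by at least 1 on the log2 scale, 542 upwards and 333 downwards. The balance of directions depended on scaling: 51.8% of calls were upwards as reported, 84.2% of 1685 with median scaling and 36.2% of 1772 when arrays were scaled on bright probes, a setting that moved the median change of all features from -0.02 to -0.43. The smallest change called was 0.31 and the median standard error 0.14. In vehicle livers against the same PBS arrays 18.2% of features were called, 9.51% up and 8.73% down. Both comparisons share the PBS arrays, so their values are only set side by side below. Levels are normalized log2 intensities, changes are log2 differences ± SE from limma with 3 arrays a group, and a level at or below 6.38 counts as near background, which makes the change a lower limit.

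Gstp1, the placental glutathione S-transferase, had the largest rise against PBS among named genes. It read 7.40, 7.34 and 7.21 in the PBS livers and 13.69, 13.95 and 14.30 after erlotinib 0.5. Its change of 6.67 ± 0.31 is a 102-fold difference (adjusted p = 1.53e-11), and the vehicle arrays, at 13.70, 14.52 and 14.80, overlapped with the erlotinib arrays. Its 3 probes disagreed, from -0.10 to 6.67, and the brightest stands for the gene. Akr1b8, an aldo-keto reductase, read 6.20, 6.03 and 6.13 in PBS, near background, and 11.44, 12.30 and 12.51 after erlotinib 0.5, a change of 5.96 ± 0.55. The efflux pump gene Abcc3 read 6.24, 6.60 and 6.30 against 9.94, 9.82 and 10.09, with a change of 3.57 ± 0.19. In each of these genes every erlotinib array lay above every PBS array, but the 12 highest were picked among genes with such separation. The groups did not overlap in 31.7% of all features and in 2954 of the 2994 called.

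**Figure D1:**
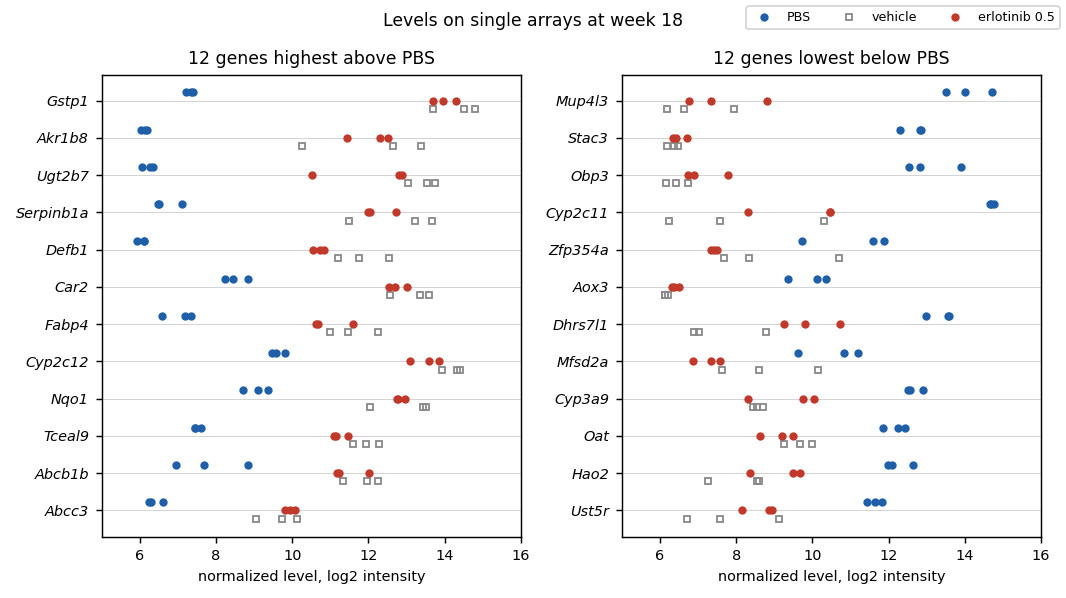
Levels on single arrays of the 12 named genes with the highest and the 12 with the lowest change between erlotinib 0.5 and PBS at week 18, among called genes whose groups do not overlap. The horizontal axis is normalized log2 intensity, filled points are PBS (blue) and erlotinib 0.5 (red) arrays and open squares are vehicle arrays. Gstp1 lies between 13.69 and 14.30 after erlotinib 0.5 and between 7.21 and 7.40 in PBS.

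Other genes among the 12 highest have varied roles. The glucuronosyltransferase Ugt2b7 differed by 5.85 ± 1.21, with erlotinib arrays at 12.81, 12.88 and 10.53 and PBS at background. Serpinb1a, an inhibitor of serine proteases, rose by 5.55 ± 0.44, the beta-defensin Defb1 by 4.65 ± 0.36 and the carbonic anhydrase Car2 by 4.24 ± 0.32. Fabp4, a fatty acid binding protein of adipocytes and macrophages, rose by 3.94 ± 0.34, Tceal9 by 3.74 ± 0.23 and the multidrug pump gene Abcb1b by 3.65 ± 0.40. Side by side, the vehicle changes were 7.22, 6.10, 5.78, 4.66, 4.54, 4.44 and 4.03 in the same order. None of these 7 genes passed the test between erlotinib 0.5 and vehicle, where the adjusted p-values lay between 0.204 and 0.817. Only 0.14% of all features passed it.

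Among preneoplastic and oncofetal genes, 11 of 17 measured rose and 2 fell, against 8.01% and 7.47% of all features, with a median change of 1.33 against -0.02. The list held 20 genes and 17 passed the filter on dim probes. Besides Gstp1, Akr1b8, Abcc3 and Abcb1b, the annexin Anxa2 rose by 3.17 ± 0.24, and the aldehyde dehydrogenase Aldh3a1 rose by 2.40. Cdh17, a cadherin of the intestine and liver, fell by 1.93 and the trypsin inhibitor gene Spink1 by 0.73. Afp, the fetal albumin-like protein used as a tumour marker, read 9.39, 9.62 and 9.19 against 9.85, 9.50 and 9.92 in PBS, a change of -0.36 ± 0.22 (adjusted p = 0.35), and the groups overlapped.

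Genes of the NRF2 pathway were raised together. NRF2 is a transcription factor that is held back by KEAP1, is released by oxidants and electrophiles, and binds antioxidant response elements near genes for glutathione synthesis and drug conjugation. Of 24 measured members of the list, 19 rose and none fell, with a median change of 1.18. The call count was 12 with bright-probe scaling and 15 with median scaling. Nqo1, a quinone reductase, read 9.09, 8.71 and 9.35 in PBS and 12.75, 12.96 and 12.78 after erlotinib 0.5, a change of 3.78 ± 0.29. Gsta3, an alpha-class glutathione S-transferase, rose by 3.46 ± 0.25 and Akr7a3, an aflatoxin aldehyde reductase, by 3.15 ± 0.29. Both subunits of glutamate-cysteine ligase, which begins glutathione synthesis, were higher, Gclc by 1.36 and Gclm by 1.25. Slc7a11, Srxn1, Gstm4, Me1 and Cbr3 did not pass, with changes of 0.00, 0.15, 0.10, 0.37 and 0.48. A probe may also bind transcripts of related glutathione S-transferases, which leaves the exact member open to doubt.

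The core of the antioxidant response element is written TGACNNNGC, and the promoters of the raised NRF2 genes were searched for it to show the sequence behind the list's name. Promoters were windows from 250 bases before to 50 after the gene start, from RefSeq on assembly GRCr8, where 17 of the 19 raised genes had an entry. A match on either strand was found in 7 of 17, against 12.2% of 27457 promoters of the table. The matches with 25 bases on each side are printed for 4 of the genes, 5′ to 3′ on the gene's strand, with the motif in capitals (as its reverse complement where it lies on the opposite strand).
Gstp1, chr1:210769733-210769791, minus strand: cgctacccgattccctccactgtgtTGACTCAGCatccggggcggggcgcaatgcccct
Gsta3, chr9:31154947-31155005, plus strand: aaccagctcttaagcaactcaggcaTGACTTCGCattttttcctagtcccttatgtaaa
Gclm, chr2:213031938-213031996, plus strand: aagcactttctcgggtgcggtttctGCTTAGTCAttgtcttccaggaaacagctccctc
Prdx1, chr5:135383746-135383804, plus strand: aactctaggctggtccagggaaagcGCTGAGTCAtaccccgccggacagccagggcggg
Counted in bases from the gene start, the match began at -61 in Gstp1, at -17 in Gsta3, at -172 in Gclm and at -135 in Prdx1, a peroxiredoxin gene that rose by 0.79. A match describes these letters and does not show binding. Nqo1 and Gclc had no match within the window, which says nothing of sites outside it.

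Matrix genes were raised as well. Of 29 collagen and matrix genes 18 rose and none fell, with a median change of 0.78, and the median was 0.68 with bright-probe scaling. Col1a2, a chain of the main fibrillar collagen of scar tissue, read 9.16, 9.63 and 9.04 in PBS and 12.12, 11.96 and 12.41 after erlotinib 0.5, a change of 2.89 ± 0.25 (adjusted p = 7.65e-08). Its partner Col1a1 read 5.95, 6.07 and 6.29 in PBS, near background, and 7.71, 7.58 and 7.51 after erlotinib 0.5, a rise of at least 2.82-fold. Col3a1 rose by 2.02 ± 0.31 and the basement membrane chain Col4a1 by 2.32 ± 0.28. Fbln1, a matrix glycoprotein, rose by 2.84 ± 0.26, the calcification inhibitor Mgp by 2.52 ± 0.30 and the proteoglycan decorin, Dcn, by 1.64 ± 0.31. Vehicle arrays gave changes of 2.79 for Col1a2, 1.14 for Col1a1, 2.18 for Col3a1 and 2.76 for Dcn. No gene of this list passed the test between erlotinib 0.5 and vehicle, which 0.14% of all features passed, and the median difference was -0.02. For Col1a2 that difference was 0.10 (adjusted p = 0.95) and for Dcn -1.12 (adjusted p = 0.152).

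In the list of matrix turnover and crosslinking 11 of 23 genes rose. The 2 lowered are a share near that of all features, and none was lowered with median scaling or without PBS rat 8, PBS rat 18, erlotinib rat 73 or erlotinib rat 74. Timp1, which inhibits metalloproteinases, read 7.63, 7.54 and 7.95 against 9.91, 9.64 and 9.94 after erlotinib 0.5, a change of 2.12 ± 0.21. The macrophage elastase Mmp12 rose by 2.65 ± 0.25, the procollagen peptidase Adamts2 by 2.34 ± 0.20 and the crosslinking enzyme Loxl1 by 2.17 ± 0.24. Lox, another crosslinking enzyme, fell by 0.86 ± 0.27, with erlotinib arrays at 9.66, 9.57 and 9.94 that overlapped with PBS at 11.09, 9.55 and 11.12. This call was lost on leaving out PBS rat 8 (change -0.61), PBS rat 18 (-0.60), erlotinib rat 73 (-0.83) or erlotinib rat 74 (-0.79). In the TGF-beta list 6 of 15 genes rose and 1 fell. Tgfb1, the ligand that drives matrix production, rose by 1.07 ± 0.20, its binding proteins Ltbp1 and Ltbp2 by 1.15 and 1.20, and the feedback inhibitor Pmepa1 by 1.21. The Tgfb1 call was lost with bright-probe scaling, at a change of 0.72. The matricellular gene Ccn2 differed by 1.38 ± 0.39, a call lost without PBS rat 9 (1.34), PBS rat 18 (1.22) or erlotinib rat 79 (1.19).

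Cell cycle genes were raised together. Of 37 measured genes 31 rose and none fell, with a median of 1.11, and between 25 and 32 rose on leaving out each array of the comparison. Cdk1, the kinase that starts mitosis, read 6.19, 5.96 and 6.12 in PBS, near background, and 9.01, 9.61 and 9.56 after erlotinib 0.5, a change of 3.31 ± 0.25 (adjusted p = 1.01e-08). Cyclin B2, Ccnb2, rose by 2.67 ± 0.26, the spindle protein gene Prc1 by 2.59 ± 0.27, the microtubule regulator Stmn1 by 2.59 ± 0.27 and the ribonucleotide reductase subunit Rrm2 by 2.57 ± 0.29. In vehicle livers the same list had 23 genes raised and none lowered, with a median of 0.90. Between erlotinib 0.5 and vehicle the median was 0.25 and no member passed, against 0.14% of all features. For Cdk1 the difference was 0.64 (adjusted p = 0.296). Of 19 p53 target genes 3 rose and 1 fell, which is 21.1% called against 15.5% of all features, with a median of 0.16. In this list 1 was raised without PBS rat 18 or erlotinib rat 73, and none was lowered without PBS rat 8 or erlotinib rat 73. Mdm2, which degrades p53, rose by 1.10 ± 0.20, whereas the calls of Cdkn1a (0.50 ± 0.14), a cell cycle inhibitor, and Ccng1 (0.68 ± 0.23) were each lost on leaving out any of several arrays, down to changes of 0.39 and 0.40.

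Genes of the cytoskeleton, of S100 proteins and of annexins were raised in 17 of 22 measured cases and lowered in none, with a median of 1.52. S100a11, a calcium-binding protein, rose by 2.92 ± 0.33, the tubulins Tubb6 and Tuba1a by 2.91 ± 0.24 and 2.88 ± 0.32, and the galectin Lgals3 by 2.52 ± 0.18. Lgals3 read 9.62, 9.40 and 9.96 in PBS against 12.18, 12.21 and 12.15 after erlotinib 0.5.

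**Figure D2:**
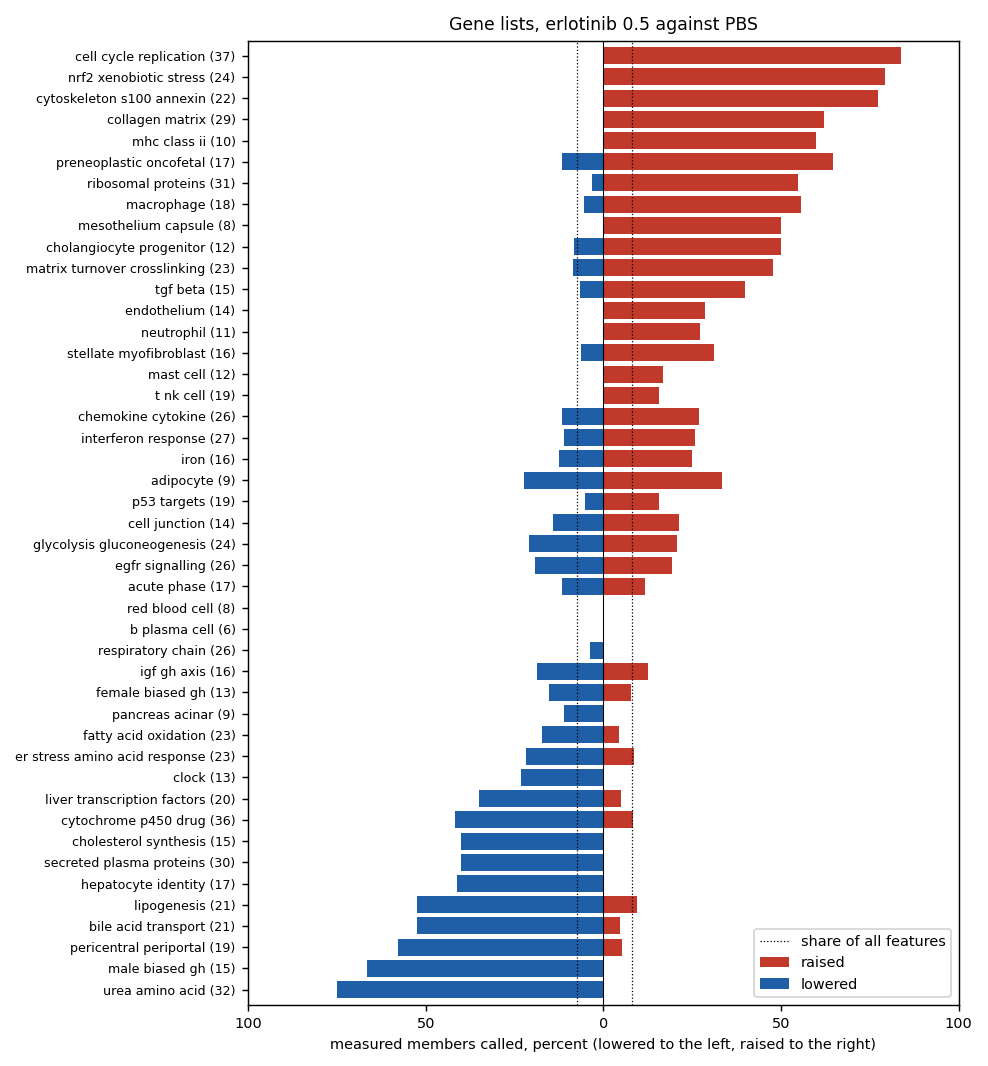
Share of the measured members of each gene list that passed the test between erlotinib 0.5 and PBS, with raised members to the right and lowered members to the left, in percent. Numbers in parentheses are measured members and dotted lines the shares over all features, 8.01% up and 7.47% down. The cell cycle list (31 of 37 raised) and the urea and amino acid list (24 of 32 lowered) lie at the ends in the fit shown, an order that differed under other settings.

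Markers of several non-hepatocyte cell types read higher than in PBS, and each is given over its whole list. The mean of 12 cholangiocyte and progenitor markers was 7.74 to 8.10 over the 3 erlotinib arrays against 6.94 to 7.07 in PBS. Of these 6 rose and 1 fell. The progenitor antigen Cd24 rose by 3.36 ± 0.32, Krt19, a keratin of bile duct cells, by 2.50 ± 0.42 and the adhesion molecule Epcam by 1.98 ± 0.32, while Sctr, the secretin receptor of bile ducts, fell by 1.70 ± 0.22. Spp1, the secreted phosphoprotein osteopontin, read 8.12, 9.17 and 9.57 against 6.61, 6.16 and 6.21 in PBS, a change of 2.63 ± 0.41.

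The mean of 18 macrophage markers was 8.85 to 8.99 against 8.09 to 8.25, with 10 raised (6 with bright-probe scaling) and 1 lowered. The complement genes C1qb and C1qc rose by 1.91 ± 0.26 and 1.71 ± 0.27 and the protease gene Ctss by 1.53 ± 0.17, whereas Cd14, the endotoxin co-receptor, fell by 2.01 ± 0.35. Cd68 had no named probe. Antigen presentation genes of MHC class II had a mean of 8.93 to 9.25 against 7.81 to 8.13, and 6 of 10 rose. RT1-DMb rose by 2.32 ± 0.29, RT1-Da by 2.26 ± 0.29 and the invariant chain Cd74 by 2.13 ± 0.31. Of 16 stellate cell and myofibroblast markers 5 rose and 1 fell, with means of 7.70 to 7.95 against 7.13 to 7.23. Vimentin, Vim, rose by 2.69 ± 0.21 and Tagln, an actin-binding protein, by 2.54 ± 0.20. Acta2 had no named probe, and the median of the list, 0.33, became -0.03 with bright-probe scaling. Endothelial markers had 4 of 14 raised, led by Plvap at 1.44 ± 0.21. Without a call, 8 were lower and 2 higher, and the median of the list was -0.01. That median was 0.32 with median scaling, where 5 rose, and -0.15 with bright-probe scaling, where 3 rose. The list means, 7.77 to 8.11 against 7.6 to 7.65 in PBS, did not overlap. Whether this list rose as a group therefore depended on the summary and the scaling.

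Lymphocyte and granulocyte markers were low. Of 6 B cell markers none was called, and their means of 6.23 to 6.35 overlapped with PBS at 6.26 to 6.35, near background. Of 19 T and NK cell markers 3 were called, Nkg7 at 0.71, Cd3g at 0.54 and Cd3d at 0.49, and none of the 3 calls held with bright-probe scaling, without PBS rat 9 or without erlotinib rat 79. Mast cell markers had 2 of 12 raised, 1 without PBS rat 8, 9 or 18 or erlotinib rat 74 or 79, and 0 in the deposited normalized table, without background correction or with bright-probe scaling. Their means were 6.42 to 6.85 against 6.27 to 6.35 in PBS and 6.83 to 7.23 in vehicle. The chymase gene Cma1 changed by 1.38 ± 0.34. Of 11 neutrophil markers 3 rose, with means of 6.75 to 6.81 against 6.20 to 6.31. Lcn2, also an acute phase gene, rose by 2.69 ± 0.55, S100a8 by 1.75 ± 0.51 and Pglyrp1 by 1.34 ± 0.29. With bright-probe scaling 1 of the list rose, and the calls of S100a8 and Pglyrp1 were lost (adjusted p = 0.12 and 0.0633). The S100a8 call was also lost without PBS rat 9 or 18 or erlotinib rat 74 or 79. The defining granule genes Elane and Mpo did not pass, and Elane read 6.12, 6.02 and 6.09. Red cell markers had no call among 8, and of 9 pancreas acinar genes the elastase gene Cela1 alone was called, with a change of -1.95 ± 0.33. Adipocyte markers had 3 of 9 raised and 2 lowered (1 without PBS rat 8 or 9 or any of the erlotinib rats, 0 with median scaling), with means of 8.24 to 8.42 against 7.53 to 7.71. Mesothelial markers had 4 of 8 raised, but 2 without PBS rat 18 or erlotinib rat 79. Among the 4 are 2 keratins that other epithelia also carry, and Msln itself, at 7.06, 6.46 and 6.61, did not pass. The part of these cell types in the changes of other genes was not tested.

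**Figure D3:**
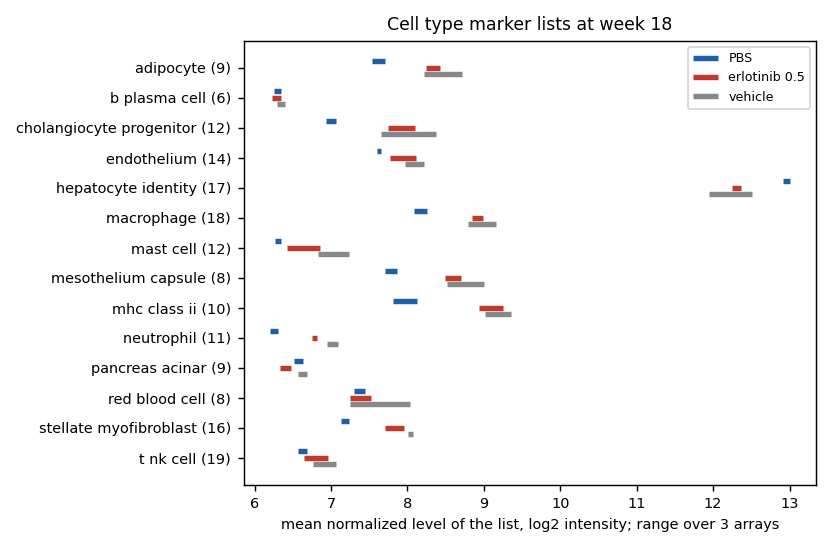
Mean normalized log2 intensity of each cell type marker list at week 18. Bars span the lowest to the highest of the 3 arrays of PBS (blue), erlotinib 0.5 (red) and vehicle (grey), and numbers in parentheses are list members. Hepatocyte markers lie at 12.25 to 12.37 after erlotinib 0.5, below PBS at 12.91 to 13.01.

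Hepatocyte genes were read at high levels, as the tissue's label implies. Alb, the plasma albumin gene, read 15.20, 14.93 and 15.13 after erlotinib 0.5 and 15.02, 14.92 and 14.99 in PBS, a change of 0.11 ± 0.17 (adjusted p = 0.774). Of 17 markers 7 fell and none rose, but 1 fell with median scaling. The list mean did not overlap between the groups. Transthyretin, Ttr, fell by 1.09 ± 0.19, the urea cycle entry enzyme Cps1 by 1.17 ± 0.24 (lost with median scaling, adjusted p = 0.119) and Hnf4a, a master regulator of hepatocytes, by 0.61. Apob read near background in both groups, so its probe does not inform. Of 20 liver transcription factors 7 fell and 1 rose, and with median scaling 2 fell and none rose. Bcl6, a repressor that is linked to sex-biased liver genes, fell by 2.65 ± 0.58, the bile acid receptor Nr1h4 by 1.01 ± 0.16, the thyroid hormone receptor Thrb by 1.15 ± 0.21 and Nr0b2 by 1.27 ± 0.29. The last 3 calls were lost with median scaling (adjusted p = 0.221, 0.276 and 0.0878). Nr1i3, a xenobiotic receptor, was called higher at 0.93 ± 0.30, a call lost on leaving out PBS rat 9 or 18 or erlotinib rat 73 or 74. Of 30 secreted plasma proteins 12 fell and none rose, 6 without PBS rat 9, 8 without PBS rat 8 or erlotinib rat 74 and 4 with median scaling. The apolipoprotein Apoa2 fell by 1.96 ± 0.30, complement C6 by 1.52 ± 0.18 and the anticoagulant protein S, Pros1, by 1.16 ± 0.15, a call lost with median scaling (adjusted p = 0.06).

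Male-biased liver genes held the largest falls against PBS among named genes. In rats, pulses of growth hormone in males keep these genes high, and a steadier pattern in females favours others. Mup4l3, of the major urinary proteins, read between 13.50 and 14.71 on the 3 PBS arrays and 7.35, 6.75 and 8.80 after erlotinib 0.5, so that it fell by 6.44 ± 0.66 (87-fold, adjusted p = 5.33e-07). Stac3 fell by 6.16 ± 0.37, from 12.85, 12.29 and 12.81 to 6.33, 6.71 and 6.42, near background on 1 of the arrays and just above on the others. Obp3, a lipocalin, fell by 5.95 ± 0.42. Cyp2c11, the main male cytochrome P450, read 14.77, 14.65 and 14.69 in PBS and 8.30, 10.46 and 10.47 after erlotinib 0.5, a change of -4.96 ± 0.85. Genes of the urinary protein family share much of their sequence, so single members are uncertain.

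Of 15 male-biased genes measured, 10 fell and none rose, with a median of -1.71, while in vehicle livers 14 fell, with a median of -2.90. Between erlotinib 0.5 and vehicle the median of the list was 0.99 higher after erlotinib 0.5. The steroid enzyme gene Hsd3b5 (1.25, adjusted p = 0.0161) was the only member called, where 0.14% of all features were. The Hsd3b5 call was lost with median or bright-probe scaling, in the deposited normalized table, and without vehicle rat 69, erlotinib rat 73 or erlotinib rat 74. Without vehicle rat 24, whose array stood apart, 6 members were called higher than in vehicle. That setting was added after seeing the data, and list counts against vehicle were made for no other omission. Cyp2c11 was 1.71 higher than in vehicle (adjusted p = 0.466), where the 3 vehicle arrays read 10.31, 7.57 and 6.22. The call of Cyp3a2 against PBS, a change of -2.19 ± 0.70, was lost on leaving out any of the 6 arrays.

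Female-biased genes did not move as a group. Of 13 measured, 1 rose and 2 fell, with 1 lowered without PBS rat 9 or 18 or any of the erlotinib rats. Cyp2c12, the typical female cytochrome P450, read 9.46, 9.81 and 9.58 in PBS and 13.58, 13.09 and 13.85 after erlotinib 0.5, a rise of 3.89 ± 0.36. Hao2, a peroxisomal oxidase, fell by 3.06 ± 0.45. The growth hormone receptor gene, Ghr, fell by 1.94 ± 0.16 and Igfals, which carries insulin-like growth factors in plasma, by 1.94 ± 0.14, while the binding protein gene Igfbp2 rose by 2.62 ± 0.43. Igf1 had no named probe. In the whole list of this hormone axis 2 of 16 rose and 3 fell.

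Of 36 cytochrome P450 and related genes 15 fell and 3 rose, with a median of -0.60. The lowered count was 12 on leaving out each array of the comparison in turn, 10 with median scaling and 21 with bright-probe scaling. Aox3, an aldehyde oxidase, fell by 3.55 ± 0.22, from 10.36, 9.35 and 10.12 in PBS to 6.51, 6.36 and 6.30. Cyp3a9 fell by 3.29 ± 0.39 and Cyp1a2, an enzyme of the pericentral zone, by 2.59 ± 0.44. Cyp2e1, which activates DEN, read 14.67, 15.16 and 14.81 against 15.33, 15.36 and 15.23, a change of -0.42 ± 0.27 (adjusted p = 0.36). Every erlotinib array lay below every PBS array, but the groups did not overlap in 31.7% of all features. Cyp2e1 passed only with bright-probe scaling, at -0.99.

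Genes of the urea cycle and of amino acid catabolism were lowered together. Of 32 genes 24 fell and none rose, with a median of -1.06, and 9 fell with median scaling and 27 with bright-probe scaling. Oat, ornithine aminotransferase, read 11.84, 12.25 and 12.43 in PBS and 8.63, 9.20 and 9.50 after erlotinib 0.5, a change of -3.06 ± 0.30 (adjusted p = 3.58e-07). Gnmt, a methyltransferase that uses S-adenosylmethionine, fell by 2.37 ± 0.39, the tyrosine enzyme gene Tat by 2.30 ± 0.55 (lost with median scaling, adjusted p = 0.0541) and the lysine enzyme gene Aass by 2.22 ± 0.44. Among urea cycle genes, besides Cps1 named above, Otc changed by -0.85 and Ass1 by -1.02, and Arg1, at -0.41 (adjusted p = 0.211), did not pass. Vehicle livers had 23 genes of this list lowered, with the same median of -1.06. None passed between erlotinib 0.5 and vehicle, against 0.14% of all features. In the list of pericentral and periportal genes 11 of 19 fell (4 with median scaling) and 1 rose, the ammonium transporter gene Rhbg by 2.36 ± 0.25.

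Bile acid, lipid and sugar genes were lower in part. Of 21 bile acid and transport genes 11 fell, 5 with median scaling, and 1 rose. Slc10a1, which takes bile acids up from blood, read 13.80, 13.80 and 13.66 in PBS and 11.96, 11.96 and 12.05 after erlotinib 0.5, a change of -1.76 ± 0.21. Cyp8b1, which makes cholic acid, fell by 2.14 ± 0.55 (lost with median scaling, adjusted p = 0.0915), whereas Cyp7a1, whose enzyme starts the making of bile acids, did not pass, at -0.75 ± 0.57 (adjusted p = 0.471). Of 24 genes of glycolysis and gluconeogenesis 5 rose and 5 fell, with 3 raised without PBS rat 8 and 3 lowered without erlotinib rat 74 or with median scaling. Of 21 lipogenic genes 11 fell, 6 with median scaling, and 2 rose. The glycolytic enzyme gene Pklr fell by 2.53 ± 0.34, the lipogenic regulators Thrsp and Srebf1 by 2.20 ± 0.51 and 1.69 ± 0.36, and the fatty acid uptake gene Cd36 rose by 2.01 ± 0.31. The Srebf1 call was lost with median scaling (adjusted p = 0.0686). The desaturase gene Scd read 13.86, 13.32 and 13.11 against 14.31, 14.46 and 15.00, a change of -1.16 ± 0.48 that missed the threshold (adjusted p = 0.115). Of 15 cholesterol synthesis genes 6 fell, none with median scaling and 3 without PBS rat 18 or without erlotinib rat 74, and vehicle livers had 12 lowered. Nsdhl, of the sterol pathway, fell by 1.32 ± 0.23. Fatty acid oxidation had 4 of 23 genes lowered, 2 without PBS rat 8, erlotinib rat 73 or erlotinib rat 79 and 1 with median scaling, and 1, the uncoupling protein gene Ucp2, raised by 1.78 ± 0.22. The respiratory chain had 1 of 26 called, Sdha, which fell by 0.71, with 2 lowered without erlotinib rat 79 and none with median scaling.

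The EGFR list bears on the drug's target, with the limit that tissue was taken after a washout. Of 26 measured genes 5 rose and 5 fell, with a median of -0.08. The raised count was 2 without erlotinib rat 79 and 3 without PBS rat 8, PBS rat 9 or erlotinib rat 73, and 3 fell with median scaling. Egfr itself read 7.14, 6.89 and 6.86 against 8.59, 7.87 and 7.81 in PBS and fell by 1.12 ± 0.25, a call lost with median scaling at -0.76. Its ligand gene Egf fell by 1.59 ± 0.15, and Errfi1, a feedback inhibitor of the receptor, by 2.08 ± 0.44. In vehicle livers these changes were -1.28, -1.87 and -1.44, and against vehicle the differences were 0.15, 0.28 and -0.64 (adjusted p = 0.905, 0.535 and 0.659). Ccnd1, cyclin D1, read 12.32, 12.40 and 11.47 after erlotinib 0.5, 9.63, 10.58 and 10.82 in PBS and 9.96, 11.22 and 10.91 in vehicle. It rose by 1.72 ± 0.38 over PBS and was 1.37 above vehicle without passing there (adjusted p = 0.152). The lowest erlotinib array, 11.47, lay just above the highest vehicle array, 11.22, and this separation was not tested. Egr1 and Myc, growth factor response genes, changed by 1.56 ± 0.38 and 1.45 ± 0.37. The Egr1 call was lost without PBS rat 9 and the Myc call without erlotinib rat 79. Dusp6, a phosphatase gene induced by ERK, changed by 0.72 ± 0.24, a call lost without PBS rat 8 or 18 or erlotinib rat 73 or 79 (changes of 0.53, 0.78, 0.63 and 0.64). The ERK feedback gene Spry4 was near background after erlotinib 0.5 and did not pass.

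Smaller lists gave mixed results. Of 31 ribosomal protein genes 17 rose and 1 fell, a count of 2 raised with bright-probe scaling. Rps3 rose by 1.09 ± 0.15 and Rplp0 by 0.89 ± 0.11, and the Rplp0 call was lost with that scaling. Of 26 chemokine and cytokine genes 7 rose and 3 fell. The T cell attractant Ccl19 rose by 2.59 ± 0.31 and Cxcl16 by 1.94 ± 0.21, and the 2 probes of Il33 disagreed in sign. Of 27 interferon response genes 7 rose and 3 fell, with 4 raised without PBS rat 8 or 9, 3 raised without erlotinib rat 79 and 1 lowered without erlotinib rat 74. In the acute phase list 2 of 17 rose and 2 fell, with a median of -0.04, shares near those of all features. Lbp rose by 2.24 ± 0.33, and Crp and Il6r fell by 1.51 ± 0.29 and 1.98 ± 0.23. Iron genes had 4 of 16 raised and 2 lowered (none lowered with median scaling), with the exporter gene Slc40a1 up by 1.74 ± 0.21, while hepcidin, Hamp, differed by 0.07 ± 0.36 (adjusted p = 0.941). Of 13 clock genes Per2 (-1.59 ± 0.34), Per1 (-1.46 ± 0.36) and Dbp (-0.75 ± 0.12) fell, none of them with median scaling, and Per1 not without PBS rat 9. The sources used here give no hour of killing. Of 14 junction genes the connexin Gja1 rose by 1.61 ± 0.19 and Gjb1, the main hepatocyte connexin, fell by 1.33 ± 0.20, a call lost with median scaling. Unfolded protein genes had 2 of 23 raised, 1 without PBS rat 9, erlotinib rat 74 or erlotinib rat 79, and 5 lowered, led by Herpud1 with a change of -1.81 ± 0.27. The lowered count was 3 without PBS rat 9, PBS rat 18 or erlotinib rat 73 and 2 with median scaling.

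The comparison with vehicle asked where livers given the lower dose differed from DEN livers given none. Only 27 features passed, 0.14% of those tested, 20 higher (0.103%) and 7 lower (0.0362%) after erlotinib 0.5, with differences of 0.62 to 1.71. At an unadjusted p under 0.05 there were 2172, which is 11.2%. Among the named genes 7 were lower. S100a6, a calcium-binding protein, read 8.56, 8.75 and 8.68 after erlotinib 0.5, 9.89, 9.91 and 9.95 in vehicle and 6.75, 6.99 and 7.02 in PBS. It was lower than vehicle by -1.25 (adjusted p = 0.00263). Gpc3, an oncofetal cell surface proteoglycan, read 8.79, 9.00 and 9.29 against 10.17, 10.24 and 9.88 in vehicle and 6.33, 6.46 and 6.53 in PBS, a difference of -1.07 (adjusted p = 0.00663). In both genes the 3 groups did not overlap, and erlotinib 0.5 lay between PBS and vehicle. Both were picked for their statistics in this test, so their separation from vehicle is no added support.

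The other lower genes were Rasl11b (-1.39), Mex3c (-0.98), the annexin Anxa1 (-0.98), Chmp4c (-0.81) and Plscr1, which read 8.63, 9.06 and 9.03 against 10.02, 9.66 and 10.05 in vehicle. Among 16 named genes that were higher than in vehicle, several have roles in liver metabolism or secretion. Amy1, an amylase, read 12.53, 12.30 and 12.44 against 11.63, 11.47 and 10.99 in vehicle and 13.16, 13.27 and 13.06 in PBS, a difference of 1.06 (adjusted p = 0.0031). The desaturase gene Fads1 differed by 1.44, the deiodinase gene Dio1 by 1.18, the lectin gene Mbl2 by 1.11, Ndrg2 by 1.05, the organic anion transporter gene Slc22a7 by 1.02 and Gltpd2 by 0.84. Marco, a scavenger receptor of liver macrophages, read 8.16, 7.78 and 7.91 after erlotinib 0.5, 6.88, 6.80 and 7.09 in vehicle and 7.43, 6.66 and 7.62 in PBS.

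These calls were few and depended on settings. None passed with median or bright-probe scaling. Over 15 alternatives, both scalings included, S100a6 and Amy1 passed in 13 and Gpc3 in 12. The count was 8 without vehicle rat 69, 3 without erlotinib rat 73, 8 without erlotinib rat 74, 36 without vehicle rat 24 and 2 when the 6 arrays were fitted alone. A miss of the threshold does not show that the groups were alike. The smallest difference called was 0.62, and genes with wide spreads, such as Cyp2c11, were less well resolved.

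**Figure D4:**
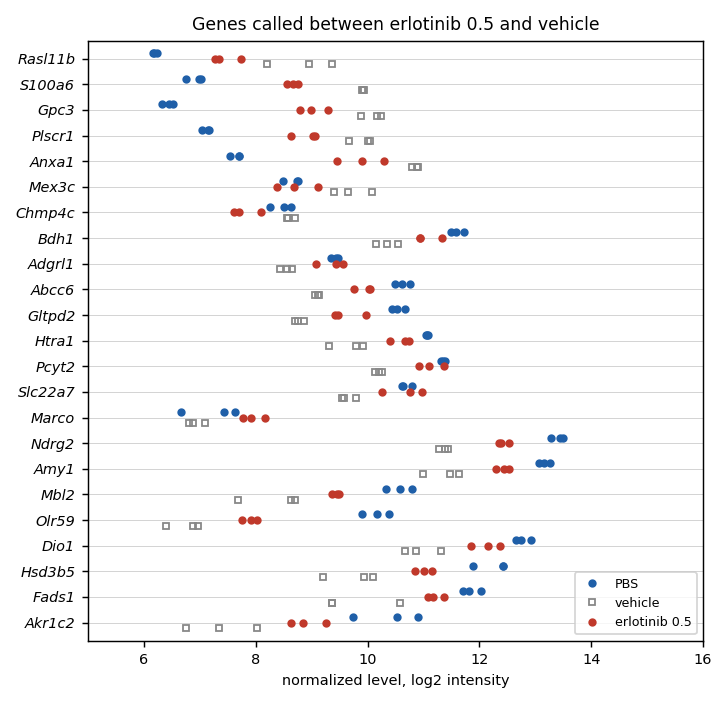
Levels on single arrays of the 23 named genes called between erlotinib 0.5 and vehicle at week 18. The horizontal axis is normalized log2 intensity, filled points are PBS (blue) and erlotinib 0.5 (red) arrays and open squares vehicle arrays. S100a6 lies at 8.56 to 8.75 after erlotinib 0.5, between PBS (6.75 to 7.02) and vehicle (9.89 to 9.95).

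The changes were then set against DEN at week 12, before the drug began, where the arrays are all different from those used so far. At week 12 DEN 50 livers differed from PBS in 10.9% of features, 5.77% up and 5.13% down. Of 1115 features raised at week 12, 879 were also raised after erlotinib 0.5 at week 18, which is 78.8% of the week 12 list and 56.7% of the week 18 list, and 98.0% had the same sign. Of 993 lowered at week 12, 670 were also lowered, 67.5% and 46.4% of the lists, and 97.3% had the same sign. The features raised at week 12 had a median change of 0.81 then and 0.85 after erlotinib 0.5, and those lowered had -0.71 and -0.65. With each comparison fitted on its own 6 arrays the shares of the week 12 lists were 82.0% and 76.4%.

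**Figure D5:**
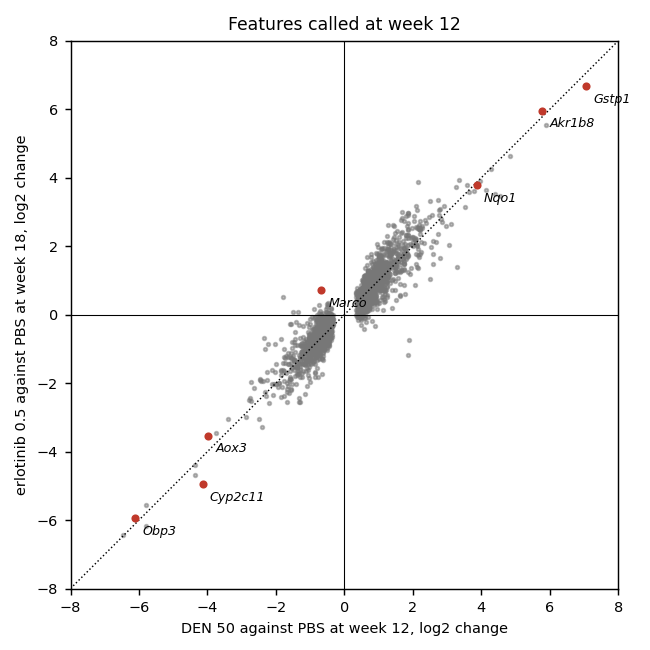
Log2 change after erlotinib 0.5 against PBS at week 18 (vertical) plotted against that of DEN 50 against PBS at week 12 (horizontal) for the features called at week 12. Each point is a feature, the dotted line marks equal changes and red points are named genes. Gstp1 lies at 7.06 and 6.67, and Obp3 at -6.12 and -5.95.

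Several genes with large changes had close values at both times, and these were picked to show. Gstp1 changed by 7.06 at week 12 and 6.67 at week 18, Akr1b8 by 5.78 and 5.96, Nqo1 by 3.86 and 3.78, Stac3 by -5.81 and -6.16 and Obp3 by -6.12 and -5.95. List medians were alike for some lists and not for others. The NRF2 list had 1.18 at both times. Urea and amino acid genes had -0.70 at week 12 and -1.06 at week 18, and lipogenic genes 0.01 and -0.78. Only Marco was called in opposite directions, with a change of 0.71 after erlotinib 0.5 and -0.67 at week 12. No feature passed the test of the difference between both changes, in which drug, time and study cannot be told apart. An unadjusted p under 0.05 was found for 1271, which is 6.57% of those tested. Differences of over 2 that did not pass included Zfp354a, which fell by 3.64 ± 0.62 at week 18 and changed by 0.81 at week 12 (difference -4.45, adjusted p = 0.143), and Pklr, with -2.53 and -0.25 (adjusted p = 0.152). Zfp354a read 7.43, 7.50 and 7.35 after erlotinib 0.5 and 11.60, 11.88 and 9.72 in PBS, with vehicle arrays spread over 10.69, 8.34 and 7.69. Of the features raised at week 18, 670 were not called at week 12, and 617 of these had the same sign then, as had 677 of 774 that were lowered.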

How the data were processed

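The authors deposited 2 tables of intensity on a linear scale, a raw one and a normalized one, and the sources used here do not say how the second was made. From the raw intensity, background was corrected with normexp and an offset of 50 (limma 3.58.1, R 4.3.3), and log2 values were then made alike between arrays by quantiles. A probe had to exceed the 40th percentile on 3 arrays or more, and the brightest probe represented its gene. Of 22523 probes 13793 had a gene symbol. Group means were fitted over all 21 arrays (7 groups of 3, 14 residual degrees of freedom) with limma's moderated test, and p-values were Benjamini-Hochberg adjusted over 19339 features. The code of the fit was also run on simulated data with independent normal noise. Such data lack outlying arrays and ties between genes, so no result here rests on that run.

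Genes named were the 12 highest and 12 lowest changes against PBS among called genes with groups that do not overlap, the 5 highest and 5 lowest statistics against vehicle, a set of chosen genes and up to 5 members per list, and not all of them are printed. Further members, and those called against vehicle, were named after their values were seen. The members and the 45 lists were chosen with earlier results of these data known. As alternatives, the fit was repeated on the authors' normalized table, without background correction, with median or bright-probe scaling, with no filter or the 60th percentile on 6 arrays, with weights for arrays, with a robust trend of the spread, on the compared arrays alone, with a change of at least 1, with the mean of a gene's probes and with each array left out. Leaving out vehicle rat 24 for list counts and separate fits for the overlap were added after seeing the data. Signal over background limits precision, and the files give no detection p-value. Figures used Python 3.11.15 and matplotlib 3.10.9.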

Additional observations from a re-analysis of the deposited data

How the results depend on the processing

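The counts of features called against PBS after erlotinib 0.5 moved to 1685 with median scaling, 1772 with bright-probe scaling and 875 at a change of at least 1, and those of vehicle against PBS to 1963, 1944 and 1108 and of DEN 50 at week 12 to 1377, 1312 and 651. Against vehicle, 15 features were called in the deposited normalized table, 0 with median and 0 with bright-probe scaling, 139 with array weights, 2 with the compared arrays alone and 16 at a change of at least 1. The difference between week 18 and week 12 gave 1 in the deposited table and 2 with the compared arrays alone. On leaving out each array the counts ran from 2307 to 2467 for erlotinib 0.5 against PBS, from 3 to 36 against vehicle, from 2804 to 3213 for vehicle against PBS, from 1405 (without DEN 50 rat 51) to 1757 at week 12 and from 0 to 5 for the difference, with 5 without rat 7 and 5 without the second of the PBS arrays at week 12. Other settings kept the counts within 1.5 times. Over the chosen genes 672 values stayed on the same side of the threshold, 42 fell below it, 5 passed it and none reversed. No paired analysis was possible because the groups share no rat number. Genes near background limit the size of change that can be measured, and 3 arrays a group limit precision.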
